A study of Rattus norvegicus with 12 samples.

Results

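The library considered here was the s-GAG library of day 14, 1 of 12 skin RNA-seq libraries, and it was set against the other 3 libraries of that day (control, d-SMG, and Alg). The libraries came from full-thickness wounds on the backs of male SD rats with streptozotocin-induced diabetes, so all groups, controls included, were diabetic and wounded. Control wounds received saline, d-SMG wounds a dried gel made from the mucus of the snail *A. fulica*, s-GAG wounds the sulfated glycosaminoglycan isolated from that gel, and Alg wounds a commercial alginate dressing. Each treatment had 1 library on each of days 3, 7, and 14, and how many animals each library held was not given in the sources used here. No difference between libraries below therefore had a replicate check, and treatment, animal, biopsy, and library cannot be told apart. The genes were chosen by position: a gene counted as above when its level in the s-GAG library was higher than in all 3 others, below when it was lower than in all 3, and within otherwise.

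Sulfated glycosaminoglycans are linear sugar chains, of which heparin is the best known, that bind growth factors, chemokines, and matrix proteins. A full-thickness wound in rat skin closes over granulation tissue built by fibroblasts, macrophages, and new vessels, while keratinocytes from the edge and from hair follicles cover it. In rats a thin sheet of skeletal muscle, the panniculus carnosus, lies under the dermis, so dorsal skin samples can hold muscle. Melanocytes sit in the hair bulb and the epidermis and make pigment through tyrosinase and its related enzymes.

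Of 25620 genes in the table, 15362 had a mean of at least 0.5 CPM (read counts scaled to a fixed library total) over the 4 day 14 libraries and were kept. The levels below are CPM scaled by TMM, a method that aligns the bulk of genes between libraries, and differences are log2 ratios with a prior count of 2 reads. The s-GAG library lay above all 3 others for 5734 genes (37.3%) and below all 3 for 6189 genes (40.3%), so 77.6% of genes were outside the range and 3439 were within it. By at least 2-fold from the nearest library, 1907 genes (12.4%) were above and 2614 genes (17%) were below. The same count of genes at least 2-fold outside the range came to 4521 for s-GAG, 1344 for the control, 421 for Alg, and 305 for d-SMG on day 14. In the 11 other libraries of the series it ranged from 180 to 1867, the highest being d-SMG on day 3. Nearest to the 2-fold line, *Mt1m* (8.74 CPM against 0.194, 3.91, and 4.31) and *Trpm7* (15.8 against 51.6, 31.8, and 51.9) lay just past it, and *Ring1* (60.7 against 23.3, 30.3, and 17.1) and *Ino80* (22.7 against 58.0, 45.4, and 51.0) just short of it.

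**Figure D1:**
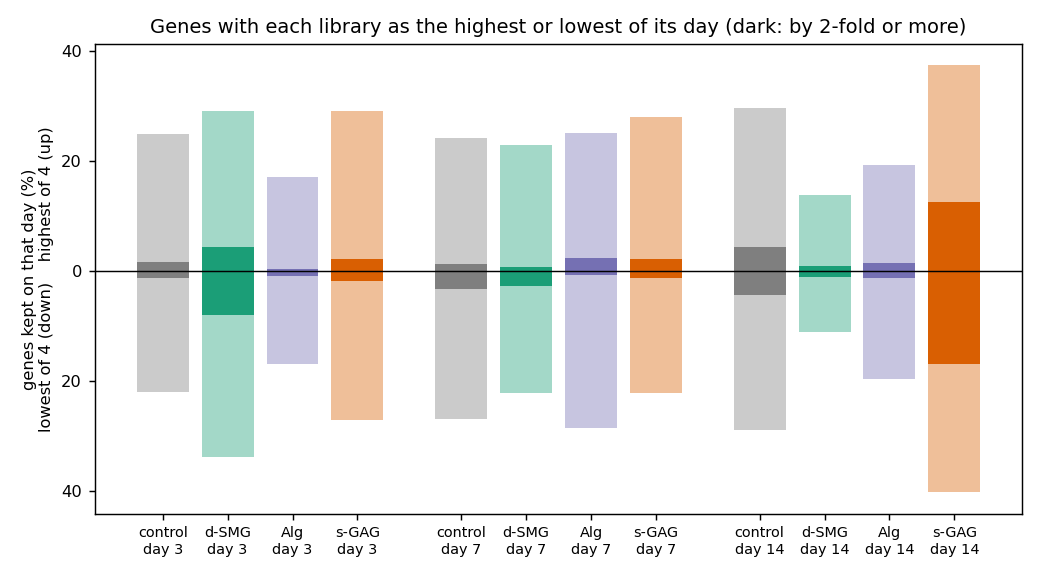
Share of the genes kept on each day (%, y axis) for which each of the 12 libraries was the highest (up) or lowest (down) of the 4 libraries of its day, with the share at least 2-fold from the nearest library in dark. The s-GAG library of day 14 reached 37.3% above and 40.3% below, with 12.4% and 17% by 2-fold.

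edgeR's quasi-likelihood test of the s-GAG library against the 3 others called 0 of 15362 genes (0%) at an adjusted p under 0.05, with a smallest adjusted p of 0.0746 by that test. At an unadjusted p under 0.05 it gave 5226 genes (34%), 2342 higher and 2884 lower in s-GAG. The fit took its spread from 3 libraries that differed in treatment and assumed that the lone s-GAG library varied like them. Without the control library the same test called 29 genes. DESeq2 on the same 4 libraries called 3684 genes, an edgeR exact test with an assumed biological variation of 0.3 called 5449, and an edgeR fit over all 12 libraries with terms for day and for this library called 4062, or 1638 with a treatment term added. Since the main test called no gene, all genes below are given by their levels and positions.

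The s-GAG library of day 14 also differed from the others in how its reads were spread over genes. It held 19725967 reads on genes, against 13748887 to 20189078 in the other 3, and the 166 most abundant genes held 50% of them, against 400 to 507 genes in the other libraries. Genes shorter than 2000 bases took 54.0% of its reads, against 24.2% to 33.4%, and the read-weighted mean gene length was 2833 bases, against 4020 to 5406. Its TMM factor was 0.771, against 1.02 to 1.15. Epidermal and dermal genes were well measured in all 4 libraries, with *Krt14*, a keratin of basal keratinocytes, at 2392, 10599, 7562, and 23734 CPM and *Col1a1*, the main dermal collagen, at 10288, 6439.9, 3904, and 4469 CPM in the control, d-SMG, Alg, and s-GAG libraries, in this order, which is kept for all levels below.

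The position of a gene followed its length in a graded way. Among 728 genes of 500 to 1000 bases, 77.2% were above all 3 and 7.55% below, with a median difference from the mean of the 3 of 1.49 log2. Among 2284 genes of 8000 bases and over, 12.6% were above and 66.9% below, with a median of -0.93. The middle classes lay between these. The 2599 genes of 1000 to 2000 bases had a median of 0.91, the 4934 of 2000 to 4000 bases 0.17, and the 4670 of 4000 to 8000 bases -0.54. Genes at least 2-fold above made up 52.1% of the 500 to 1000 base class and 1.8% of the longest, and genes at least 2-fold below made up 3.43% and 33.4%. The 143 genes under 500 bases were like the next class, with 67.8% above and a median of 1.43.

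**Figure D2:**
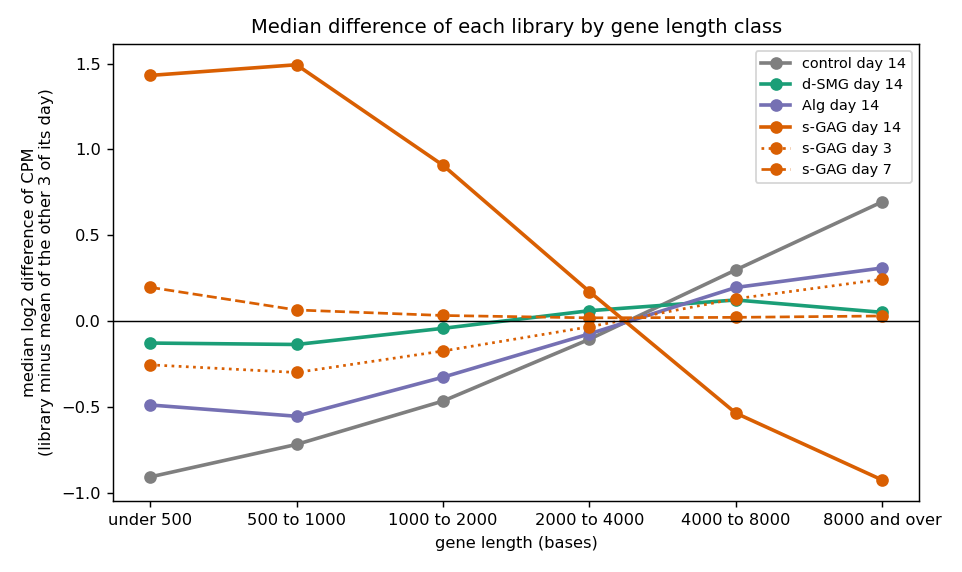
Median log2 difference of each library from the mean of the other 3 of its day (y axis) by gene length class (x axis, bases), for the 4 libraries of day 14 and for s-GAG on days 3 and 7. The s-GAG line of day 14 runs from 1.43 for genes under 500 bases to -0.93 for genes of 8000 bases and over.

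The median of the shortest class minus that of the longest was 2.36 for s-GAG on day 14, -1.60 for the control, -0.80 for Alg, and -0.18 for d-SMG. Each library is compared here with the mean of the other 3, so a trend in any library moves the values of the others in the opposite direction. For the s-GAG libraries of days 3 and 7 the same quantity was -0.50 and 0.17. The trend was seen within protein coding genes too: 71.7% of those under 500 bases were above, and 69.5% of those of 8000 bases and over were below. Among long noncoding RNAs it did not run through to the longest class. Of these RNAs, 76.9% of the 13 under 500 bases were above. Below were 43.4% of the 205 of 4000 to 8000 bases (median -0.43) but 36.2% of the 177 longest (median -0.22). Because length moved with position, the median of each gene list below is also given after the length trend of each library had been removed with a lowess curve (the length-adjusted value). Counts within a list without the trend removed are to be read against the shares of all genes. These were 37.3% above and 40.3% below, or 12.4% and 17% by 2-fold. After removal of the trend 73.4% of all genes were outside the range, and 51% of these were above. Counts given after removal are to be read against those shares, and the matching shares by 2-fold are not given here. The part of length, RNA quality, or library preparation in any single difference was not tested.

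By GeneType, protein coding genes (14464 kept) lay above in 37.6% and below in 40.7%, and long noncoding RNAs (796 kept) in 32.5% and 34.3%, both near the shares of all genes. Of the classes with fewer than 20 genes kept, those for ribosomal and small nucleolar RNA are given because of their values. All 7 ribosomal RNA genes kept were above, 5 of them 2-fold, with a median difference of 3.51, and they took 0.252% of the reads in s-GAG against 0.0344% to 0.0824%. *Rn28s*, the large ribosomal RNA, stood at 26.3, 46.3, 139, and 789 CPM. Since rRNA was depleted before sequencing, these levels are what depletion left. Of 19 small nucleolar RNAs, which guide the modification of ribosomal RNA, 13 (68.4%) were above and 3 below, with a median of 1.35. Their median length was 141 bases, and these values are near those of all genes under 500 bases (67.8% above, median 1.43). Of 44 miscellaneous RNAs, 13 were above and 24 below. Counts for small nucleolar and other short RNAs came from a library of fragments far longer than most of them and rest on few genes. Among the other GeneTypes, the long noncoding LOC102547411 had 109 reads in s-GAG and 0 in each other library, at least 49.3-fold higher than 3 reads in the control library. The noncoding LOC103692526 stood at 1.02, 0.126, 0.554, and 9.27 CPM and the 18S rRNA gene LOC120099695 at 0.0484, 1.96, 0.370, and 16.1. Lowest were the mitochondrial methionine tRNA *Trnm* at 21.6, 13.5, 10.8, and 1.25, LOC103691054 at 6.68, 2.96, 3.20, and 0.329, and LOC120099244 at 5.86, 4.16, 5.17, and 0.526.

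Pigment and muscle genes gave the widest gaps above. *Tyr*, tyrosinase, the rate-limiting enzyme of melanin synthesis, had 371 reads (24.4 CPM) in s-GAG and 0 in each other library, at least 168-fold higher than 3 reads in the control library. *Dct*, which converts dopachrome, stood at 0.629, 1.51, 1.97, and 145 CPM, 73.6-fold above Alg (95% counting interval 52.0 to 108). *Tyrp1*, a tyrosinase-related enzyme, had 0, 0, 1, and 124 reads. For these 3 genes s-GAG held nearly all the reads, and the other libraries were low. The melanosome proteins *Pmel* (4.89, 0.442, 0.493, and 19.6 CPM) and *Mlana* (4.40, 1.70, 1.85, and 6.64 CPM) were above by a smaller gap, and *Mitf*, the transcription factor of the lineage, was within the range at 44.3, 22.3, 33.6, and 32.7 CPM. So 5 of 6 melanocyte genes were above, 4 of them 2-fold, with a median difference of 4.99 and a length-adjusted median of 5.06. Counting intervals cover counting error only, since reads without molecular identifiers are not independent molecules. In bulk tissue, fewer cells of a type and less RNA per cell cannot be told apart, and whether the wound samples held equal numbers of hair bulbs was not tested.

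The promoters of the 3 pigment enzymes are shown because these genes were high in the same library, and because the letters TCATGTGCT, the core of the M-box recognised by MITF, stand before the start of each. The windows run 5′ to 3′ from 140 bases before to 10 bases into the gene (RefSeq, GRCr8), with the match in capitals.
Tyr, chr1:150622848-150622997, minus strand: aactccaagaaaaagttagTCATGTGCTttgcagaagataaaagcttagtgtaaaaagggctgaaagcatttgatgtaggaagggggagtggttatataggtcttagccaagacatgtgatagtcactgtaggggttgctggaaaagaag
Tyrp1, chr5:100326985-100327134, plus strand: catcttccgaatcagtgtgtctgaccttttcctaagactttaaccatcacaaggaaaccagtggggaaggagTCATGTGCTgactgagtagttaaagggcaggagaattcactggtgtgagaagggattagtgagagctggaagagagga
Dct, chr15:101508020-101508169, minus strand: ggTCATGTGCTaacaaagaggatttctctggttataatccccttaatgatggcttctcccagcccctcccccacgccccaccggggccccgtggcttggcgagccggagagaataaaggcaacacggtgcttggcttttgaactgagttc
The match began 121, 68, and 138 bases before the start of *Tyr*, *Tyrp1*, and *Dct*. On either strand of the 300-base promoters it was found for 54 of 27457 symbols (0.197%) and for 13 of the 11664 kept genes that had a promoter sequence (0.111%). Of those 13 genes 7 (53.8%) were above and 4 below, where 37.3% and 40.3% of all genes were. The shares of all genes also cover kept genes without a promoter sequence. The 7 include the 3 pigment enzymes shown, which were seen to be high before the letters were searched, so the count is no test of the motif. The letters were searched after the levels had been seen, and a match is a description of the sequence only.

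**Figure D3:**
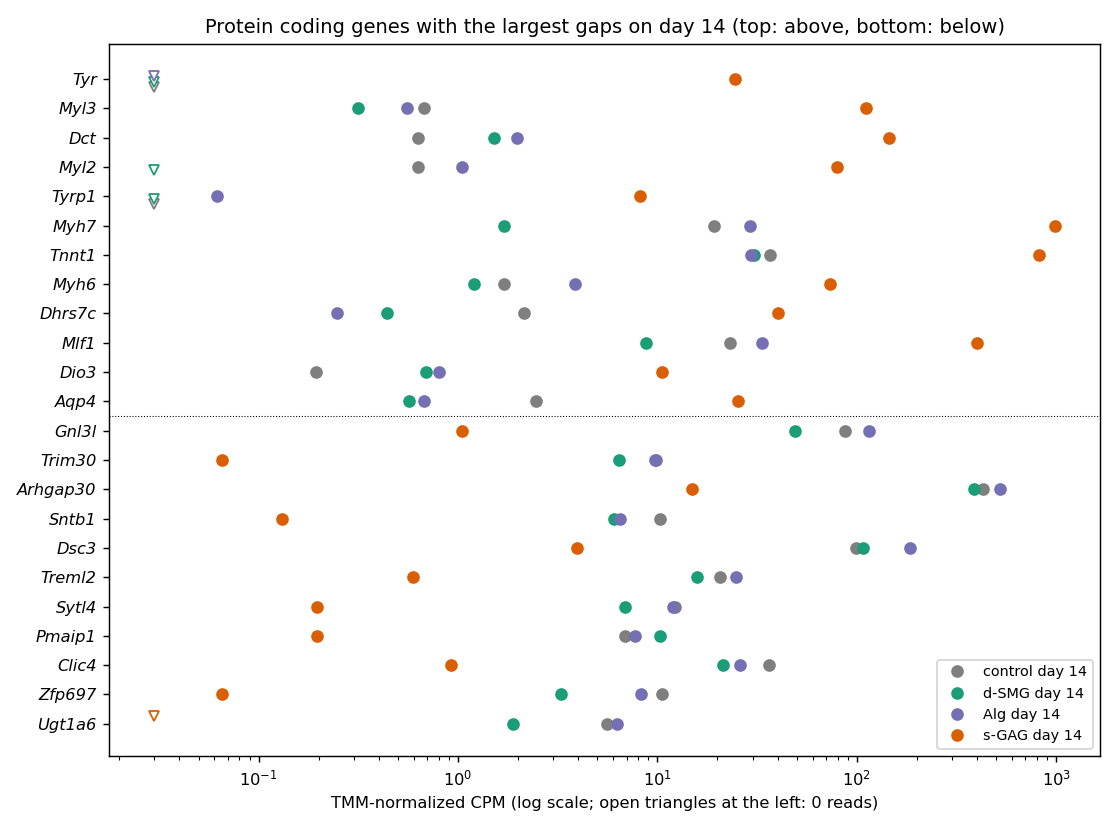
TMM-normalized CPM (log x axis) in each day 14 library for the 12 protein coding genes with the largest gap above the other 3 (top) and 11 of the 12 with the largest gap below (bottom), open triangles standing for 0 reads. The s-GAG point lies alone on the right for *Tyr* to *Aqp4* and alone on the left for *Gnl3l* to *Ugt1a6*.

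Skeletal muscle made up most of the other genes with wide gaps above. *Myl3*, the slow and ventricular essential light chain of myosin, stood at 0.678, 0.315, 0.554, and 112 CPM, 165-fold above the control (97.9 to 302). *Myl2*, the slow regulatory light chain, stood at 0.629, 0, 1.05, and 79.8 CPM. *Myh7*, the slow myosin heavy chain, stood at 19.2, 1.70, 28.9, and 989.9 CPM, 34.2-fold above Alg (31.2 to 37.6). For each of the 3 genes the s-GAG library lay far from 3 libraries that were all low. On day 3 the s-GAG library was also above the 3 others of that day for *Myl3*, *Myl2*, and *Myh7*, by 1.64, 1.62, and 1.52 log2. On day 7 all of these genes were within the range. *Tnnt1*, slow troponin T, was at 36.7, 30.7, 29.4, and 817 CPM, and *Myh6* at 1.69, 1.20, 3.88, and 73.1 CPM, a value that is uncertain because *Myh6* and *Myh7* are near-identical in sequence. *Dhrs7c*, a reductase of the muscle sarcoplasmic reticulum, stood at 2.13, 0.442, 0.246, and 40.4 CPM, *Mlf1* at 23.2, 8.77, 33.4, and 400.2, and *Aqp4*, a water channel found in fast muscle fibers, at 2.47, 0.568, 0.677, and 25.2. *Dio3*, which inactivates thyroid hormone, stood at 0.194, 0.694, 0.801, and 10.5 CPM and was above all 3 on days 3 and 7 as well.

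Of 10 slow fiber genes, 7 were above, 6 of them 2-fold, and 1 was below, with a median difference of 2.69 (1.65 length-adjusted). The gene below was *Atp2a2* (167, 134, 155, and 51.8 CPM), a calcium pump that smooth muscle and other cells also use. Of 12 fast fiber genes, 11 were above, 7 of them 2-fold, and 0 were below, with a median of 3.45 (2.61 length-adjusted). *Myoz1*, a Z-disc protein, stood at 119.8, 22.3, 24.5, and 753 CPM, *Tnni2*, fast troponin I, at 2082, 579.6, 388, and 12507, and *Actn3*, fast alpha-actinin, at 1204, 140.2, 261, and 7171. The fast genes were also far higher in the control than in d-SMG and Alg, unlike the slow genes *Myl3* and *Myl2*. Summed over the fast list the level was 56670, 8028, 11500, and 126600 CPM, and the 3 muscle lists together took 8.31%, 1.33%, 1.81%, and 11.8% of the reads. In the libraries of days 3 and 7 that share of reads ran from 1.079% (d-SMG, day 7) to 22.02% (d-SMG, day 3). It was 17.16% in Alg on day 7, so the s-GAG share of day 14 was not the highest of the series. The part of muscle content in the other differences was not tested.

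Of 12 muscle genes common to both fiber types, 6 were above, 4 of them 2-fold, and 1 was below, with a median of 1.73 (1.67 length-adjusted), and 6 were above and 0 below after removal of the length trend. *Ckm*, muscle creatine kinase, stood at 676, 136, 232, and 6537 CPM, *Eno3*, muscle enolase, at 232, 38.5, 38.7, and 1449, and *Des*, desmin, at 1691, 776, 704, and 7195. The giant filament genes were not above: *Ttn*, titin, was within the range at 2873, 128, 473, and 163 CPM, and *Neb*, nebulin, was below at 9426, 221, 987, and 176 CPM. In the control both giant genes were at their highest. Genes of muscle regeneration were not above: 0 of 11 were above and 5 below, by less than 2-fold each, with a median of -1.60 (-1.38 length-adjusted). *Myog*, myogenin, which drives myoblast differentiation, stood at 123, 13.8, 12.3, and 7.56 CPM, *Myh3*, the embryonic myosin, at 819, 626, 52.3, and 45.7, and *Ncam1* at 129, 35.5, 14.9, and 7.95.

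The genes with the widest gaps below came from several pathways. *Gnl3l*, a nucleolar GTPase, stood at 87.4, 49.0, 115, and 1.05 CPM, 46.6-fold lower than d-SMG (28.5 to 82.0). *Arhgap30*, a GTPase activating protein of blood cells, stood at 431, 386, 522, and 15.0 CPM, 25.8-fold lower than d-SMG (22.6 to 29.5). *Dsc3*, a desmosomal cadherin of basal epidermis, stood at 98.8, 108, 184, and 3.94 CPM, 25.1-fold lower than the control (19.4 to 33.0). These 3 genes were abundant in the other libraries and low in s-GAG. *Trim30* (9.82, 6.43, 9.67, and 0.0657 CPM), an interferon-induced gene, and *Treml2* (20.5, 15.7, 24.7, and 0.591 CPM), a receptor of myeloid and lymphoid cells, are genes of leukocytes. *Pmaip1*, a proapoptotic BH3 protein, stood at 6.87, 10.3, 7.76, and 0.197 CPM, and *Clic4* at 36.3, 21.2, 25.9, and 0.920 CPM, although both genes are short (349 and 835 bases). The remaining genes were *Sntb1* (10.3, 6.06, 6.47, and 0.131 CPM), *Sytl4* (12.2, 6.88, 12.01, and 0.197 CPM), *Zfp697* (10.6, 3.28, 8.25, and 0.0657 CPM), which was also below on days 3 and 7, and *Ugt1a6* (5.57, 1.89, 6.28, and 0 CPM), which shares exons with its neighbours in the Ugt1a cluster and is uncertain. *Ugt1a6* had 0 reads in s-GAG, at least 9.6-fold lower than d-SMG when s-GAG is set at 3 reads.

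Ribosomal protein genes were mostly above. Of 74 cytosolic ribosomal protein genes kept, 73 were above, 69 of them 2-fold, and 1 was below, with a median difference of 2.07 and a range of -1.37 to 2.78. Together they took 14.0% of the reads in s-GAG, against 3.33%, 6.33%, and 4.51%. After removal of the length trend 59 were above, 8 of them 2-fold, and the median was 0.75. *Rplp1*, an acidic protein of the ribosomal stalk, stood at 600.5, 1103, 671, and 5231 CPM, *Rpl19* at 1441, 2141, 1528, and 9350.0, and *Rps27* at 107, 188, 109, and 749. The d-SMG library was the next highest for each, and s-GAG stood 4.74-fold, 4.37-fold, and 3.99-fold above it. Many ribosomal proteins have processed pseudogenes, and how the counting split reads between them was not given.

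Transcripts of ribosomal protein genes begin with a run of pyrimidines (the TOP motif), so the start regions of these 3 genes are shown, 30 bases before to 20 bases into the gene (RefSeq, GRCr8). Capitals mark CTTTCC or CTTTTC on the gene's own strand.
Rplp1, chr8:71290853-71290902, minus strand: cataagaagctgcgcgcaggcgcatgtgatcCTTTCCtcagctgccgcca
Rpl19, chr10:83519034-83519083, plus strand: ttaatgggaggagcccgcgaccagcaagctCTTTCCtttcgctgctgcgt
Rps27, chr2:177964587-177964636, minus strand: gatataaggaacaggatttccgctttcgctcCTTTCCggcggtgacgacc
From 10 bases before to 20 bases after the start, one of these letter runs was found in 10 of the 19 listed ribosomal protein genes with a promoter sequence (52.6%), in 2.1% of all 27457 symbols, and in 258 of the 11664 kept genes with one (2.21%). Of those 258 genes 101 (39.1%) were above, near the 37.3% of all genes, 51 of them 2-fold, and 104 were below. The 37.3% also covers kept genes without a promoter sequence, and the share among those with one was not taken. The letters were chosen after the levels had been seen.

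Nuclear and mitochondrial genes of the respiratory chain held different positions. Of 17 nuclear genes 16 were above, 11 of them 2-fold, and 1 (*Ndufs1*) was below, with a median of 1.28 that shrank to 0.23 after removal of the length trend. *Cox4i1*, a subunit of cytochrome c oxidase, stood at 399, 648, 589.7, and 2148 CPM, *Cyc1*, cytochrome c1, at 11.4, 27.6, 15.5, and 77.0, and *Cox5a* at 12.4, 13.7, 10.8, and 35.3. Of 13 mitochondrially encoded genes, 4 were above and 5 below, with a median of -0.07, and after removal of the length trend 0 were above and 13 below, 4 of them 2-fold, with a median of -0.94. The widest gaps below were those of ATP8 (-1.73) and ND4L (-2.77), which overlap their neighbours and are uncertain. The heart and muscle isoforms *Cox6a2* (31.4, 4.04, 2.96, and 67.1 CPM) and *Cox8b* (5.52, 0.568, 0.185, and 11.9 CPM) were high in the control as well, as the fast muscle genes were.

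Of 15 genes of glycolysis and hypoxia, 10 were above, 5 of them 2-fold, and 3 were below, each 2-fold, with a median of 1.31 (0.76 length-adjusted). *Aldoa*, aldolase A, stood at 308, 247, 204, and 2406 CPM, *Pgam2*, muscle phosphoglycerate mutase, at 114, 27.5, 10.96, and 741, and *Gapdh* at 134, 120.0, 123, and 450.3. Lower were *Hk2*, hexokinase 2 (51.8, 30.0, 66.3, and 4.99 CPM), *Hif1a*, the hypoxia-responsive transcription factor (71.1, 92.9, 130.4, and 16.3 CPM), and *Hk1* (51.5, 48.6, 53.9, and 22.3 CPM). *Gapdh* and several other members are abundant in muscle. Of 14 housekeeping genes 7 were above and 4 below, from *Ppia* at 531, 1335, 897, and 4236 CPM to *Polr2a* at 91.2, 73.0, 106, and 11.7 CPM, with a median of 0.22 (-0.07 length-adjusted) that turned negative on library size scaling too.

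Macrophage genes were lower in s-GAG. Of 12 genes 11 were below, 8 of them 2-fold, and 0 were above, with a median of -2.19 (-2.32 length-adjusted). *Cd163*, a scavenger receptor of resident and M2 macrophages, stood at 651, 161, 1192, and 25.8 CPM, *Mrc1*, the mannose receptor, at 353, 149, 507, and 37.1, and *Itgam*, CD11b, at 17.7, 12.3, 29.7, and 1.64. In all 3 the d-SMG library was the next lowest. *Adgre1*, F4/80, stood at 44.1, 32.2, 74.3, and 7.89 CPM, *Csf1r*, the receptor for colony stimulating factor 1, at 128, 63.9, 121, and 25.9, and *Cd68* at 40.7, 20.6, 36.5, and 5.06. The pattern receptor subunit *Cd14* was within the range at 9.53, 16.7, 20.4, and 11.4 CPM. No defining macrophage gene was at 0 in s-GAG, and the summed level of the list was 2889, 1680, 3351, and 615 CPM.

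The inflammatory (M1) list had 5 of 10 genes below, 2 of them 2-fold, and 0 above, with a median of -1.37 (-2.03 length-adjusted). *Ptgs2*, cyclooxygenase 2, stood at 0.387, 2.40, 1.72, and 0 CPM and *Nos2*, inducible nitric oxide synthase, at 0.726, 2.14, 6.59, and 0.197 CPM. The cytokines *Il1b* (11.4, 24.9, 26.1, and 6.31 CPM) and *Tnf* (0.726, 1.39, 1.11, and 0.394 CPM) were below by less than 2-fold. The anti-inflammatory (M2) list had 4 of 9 genes below and 2 above, and 3 of the 4 genes below (*Il10* and the macrophage receptors above) were below by 2-fold, with a median of -0.24 (-0.84 length-adjusted). *Il10*, which restrains macrophage activation, stood at 1.26, 1.45, 0.493, and 0.0657 CPM, 1 read in s-GAG. *Ccl17*, a chemokine for helper T cells, was above at 0.532, 3.09, 2.59, and 7.82 CPM, and *Arg1*, arginase 1, was within the range at 3.77, 8.39, 21.1, and 9.46 CPM. The counts of both lists are to be read against all genes, of which 40.3% were below and 37.3% above. The macrophage receptors below are also counted in the macrophage list.

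Of 23 interferon-responsive genes 19 were below, 12 of them 2-fold, and 0 were above, with a median of -1.65 that stayed at -1.58 after removal of the length trend. *Mx1*, an antiviral GTPase, stood at 74.3, 37.8, 27.5, and 4.40 CPM, *Rsad2*, viperin, at 6.92, 2.14, 2.09, and 0.329, and *Oasl*, an oligoadenylate synthase relative, at 2.61, 1.83, 3.02, and 0.329. The transcription factor *Stat2*, which carries the type I interferon signal, stood at 27.1, 17.3, 17.9, and 6.37 CPM. The short genes *Isg15* (38.8, 29.5, 12.5, and 24.1 CPM) and *Oas1a* (9.39, 4.92, 3.51, and 7.62 CPM) were within the range. The control library was the highest for *Mx1*, *Rsad2*, and *Stat2*.

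The positions of other leukocyte genes changed with the length trend. Of 11 T and NK cell genes 9 were within the range and 2 below, *Cd4* (301, 158, 249, and 82.5 CPM) and *Cd8b* (0.532, 1.64, 1.35, and 0 CPM), with a median of -0.39. After removal of the length trend 9 were below and 0 above, 3 of them 2-fold, with a median of -1.17. Of 5 neutrophil genes, 2 were below, the collagenase *Mmp8* (1.16, 0.378, 2.28, and 0.0657 CPM) and the receptor *Csf3r* (4.26, 4.48, 10.5, and 1.31 CPM), with a median of -0.85 (-1.50 length-adjusted). Of 7 mast cell genes 2 were below, *Kit*, the stem cell factor receptor (13.9, 17.7, 16.2, and 4.73 CPM), and *Cpa3*, a granule protease (16.8, 4.67, 14.4, and 1.77 CPM), with a median of 0.10 that turned to -0.75 length-adjusted. *Kit* is also a gene of melanocytes. The 8 MHC class II genes had 2 above and 3 below, with the class II transactivator *Ciita* at 12.1, 10.98, 10.5, and 4.14 CPM, and 0 above and 5 below after removal of the length trend, which turned the median from 0.04 to -0.78. Of 4 B and plasma cell genes 1 was above and 1 below, with a median of -0.15 (-0.92 length-adjusted). Of 17 chemokines 1 was above, *Cxcl14*, made by epithelia (24.5, 65.4, 90.2, and 194 CPM), and 6 were below, with a median of -0.69 (12 below and -1.92 length-adjusted), *Cxcl12*, which guides stem and immune cells, standing at 223, 91.3, 124.5, and 49.3 CPM. Of 17 complement and coagulation genes 12 were below, 7 of them 2-fold, and 0 above, with a median of -1.21 (-1.22 length-adjusted). *C3*, the central complement protein, stood at 63.7, 55.5, 99.5, and 19.6 CPM, *F5*, coagulation factor V, at 16.3, 10.7, 16.6, and 4.07, and *Plau*, urokinase, at 18.5, 25.8, 31.0, and 7.49.

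**Figure D4:**
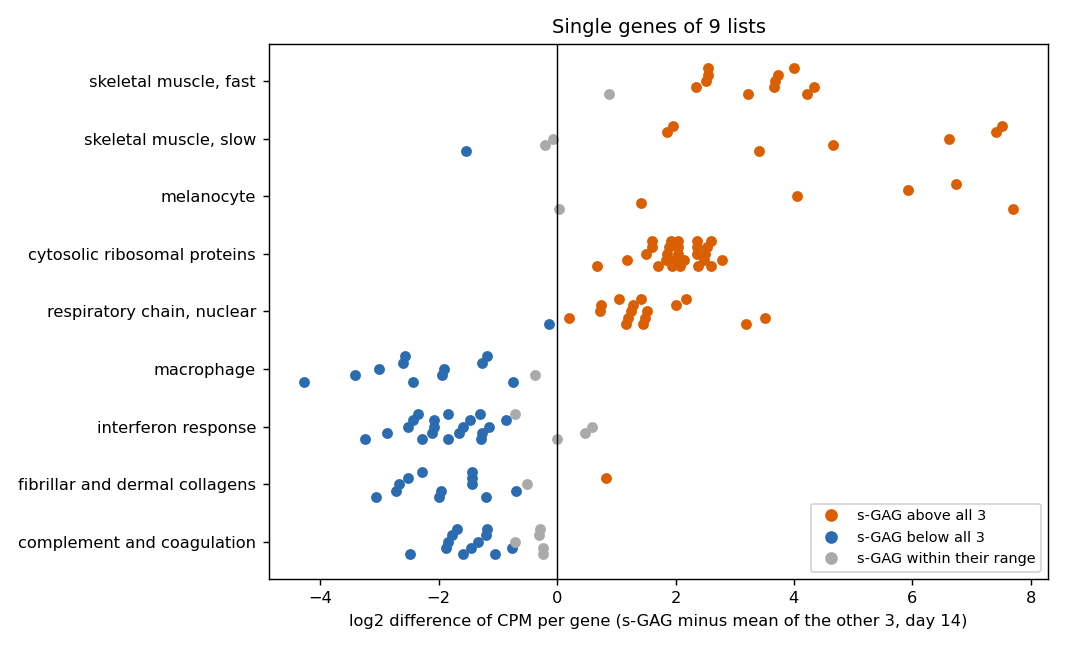
Log2 difference of each kept gene of 9 lists (x axis, s-GAG minus the mean of the other 3 on day 14), colored by whether s-GAG was above, below, or within their range. All 27 listed ribosomal protein genes lie to the right and 11 of 12 macrophage genes are below all 3.

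Matrix genes were lower as a group. Of 14 collagen genes 12 were below, 8 of them 2-fold, and 1 was above, with a median of -1.70 (-0.99 length-adjusted). *Col3a1*, the collagen of early granulation tissue, stood at 12824, 6569, 7441, and 3172 CPM, *Col1a2* at 6239, 3304, 2558, and 1382, and *Col6a1*, of the beaded microfibrils, at 2726, 1429, 2398, and 251. The basement membrane collagen *Col4a2* stood at 479, 538, 1222, and 107 CPM and the fibril regulator *Col5a2* at 1694, 571, 974, and 148. *Col7a1*, which anchors the epidermis, was above at 134, 327, 176, and 348 CPM, by 0.09 log2. *Col1a1* was within the range. The listed collagen genes had a median length of 6929 bases, and the list's median difference was smaller in size once the length trend was removed.

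Of 15 other matrix genes 11 were below, 6 of them 2-fold, and 1 above, with a median of -1.32 (-0.77 length-adjusted). *Lox*, lysyl oxidase, which crosslinks collagen, stood at 162, 153, 137, and 27.4 CPM, *Fbn1*, fibrillin, at 249, 187, 297, and 48.7, and *Dcn*, the small proteoglycan decorin, at 1255, 669.9, 1289, and 235. *Thbs1*, thrombospondin 1, stood at 48.1, 117, 117, and 13.5 CPM. The granulation tissue proteins *Fn1* (337, 350.4, 595, and 350.2 CPM) and *Tnc* (28.1, 160.3, 170.0, and 83.7 CPM) were within the range. Of 12 proteases and inhibitors 6 were below, each 2-fold, and 1 above, with a median of -0.82 (-1.04 length-adjusted). Those below included *Adamts5*, an aggrecanase (6.53, 6.12, 10.8, and 1.45 CPM), *Mmp14*, a membrane-bound protease (589, 291, 293, and 77.3 CPM), and *Mmp2* (862, 528, 809, and 247 CPM). *Mmp9* was above at 0.823, 10.5, 4.25, and 11.8 CPM by 0.16 log2, and the inhibitors *Timp1* (47.5, 168, 377, and 252 CPM), *Timp2*, and *Timp3* were within the range.

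Vessel genes were mixed. Of 12 endothelial genes 8 were below, 2 of them 2-fold, and 3 were above, with a median of -0.62 (-0.23 length-adjusted). *Cdh5*, VE-cadherin, stood at 83.3, 42.7, 105, and 16.8 CPM and *Kdr*, the main VEGF receptor, at 35.0, 25.2, 48.2, and 10.8, while the short *Cldn5*, a tight junction protein, was above at 17.1, 14.2, 9.85, and 29.3. Of 6 lymphatic genes 5 were below and 1 above, with a median of -1.73 (-1.41 length-adjusted) and with *Flt4*, VEGF receptor 3, at 5.13, 4.10, 4.50, and 0.854 CPM. Of 13 angiogenic ligands and receptors 10 were below, 5 of them 2-fold, and 3 above. The receptors and coreceptors *Nrp1* (88.5, 41.5, 90.5, and 5.32 CPM) and *Pdgfra* (145, 72.7, 209, and 14.5 CPM) had the widest gaps. Among ligands *Vegfa* stood at 91.8, 110.1, 105, and 42.4 CPM and *Angpt1*, which stabilises vessels, at 12.4, 4.48, 14.9, and 1.51, whereas *Pdgfa* was above at 34.1, 51.6, 53.2, and 175. The median of the list was -1.02 (-0.93 length-adjusted).

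In the TGF-beta pathway 9 of 15 genes were below, 2 of them 2-fold, and 3 above, and the median of -0.97 moved to -0.22 after removal of the length trend. The ligand *Tgfb1* (8.47, 12.5, 7.08, and 13.3 CPM) was above by 0.09 log2. The receptor *Tgfbr1* stood at 28.6, 24.4, 34.9, and 8.28 CPM, the shared mediator *Smad4* at 40.2, 34.7, 37.7, and 18.9, and *Skil*, a repressor of SMAD signalling, at 67.7, 70.5, 80.7, and 11.2. Of 12 myofibroblast and smooth muscle genes 5 were above and 4 below, with *Acta2*, smooth muscle actin, at 132, 136, 153, and 156 CPM, *Mylk*, myosin light chain kinase, at 347, 149, 218, and 14.1, and *Synpo2* at 409.7, 49.8, 189, and 5.85. Their median of 0.13 turned to -0.49 length-adjusted, with 2 above and 7 below.

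Of 27 genes that build or degrade glycosaminoglycans, the class of molecule applied, 15 were below, 7 of them 2-fold, and 7 were above by less than 2-fold, with a median of -0.75 (-0.40 length-adjusted). *Xylt1*, which starts the linker of heparan and chondroitin chains, stood at 36.2, 16.0, 30.8, and 2.30 CPM, and *Sulf1*, which removes 6-O-sulfates from heparan sulfate, at 105, 77.9, 203, and 15.1. *Ndst1*, which sulfates the nitrogen of heparan sulfate, was above at 16.5, 26.0, 22.2, and 46.9 CPM. The lysosomal enzymes *Arsb* (17.4, 11.5, 9.98, and 3.35 CPM) and *Ids* (18.8, 15.7, 14.2, and 6.70 CPM) were below. The hyaluronan synthases *Has1* (0.871, 3.72, 1.42, and 4.27 CPM) and *Has3* (1.06, 1.83, 5.73, and 6.64 CPM) were above by small gaps and *Has2* was within the range. Of 14 proteoglycan core proteins 4 were above and 5 below, with *Gpc3*, a glypican, at 16.2, 18.1, 21.7, and 61.6 CPM and *Hspg2*, perlecan, at 89.7, 60.2, 72.5, and 31.3, and their median of -0.20 turned to 0.32 length-adjusted. Of 12 heparin-binding growth factors 2 were above, *Ptn*, pleiotrophin (74.7, 89.3, 90.2, and 216 CPM), and *Mdk*, midkine (28.3, 11.3, 8.99, and 34.5 CPM), and 6 were below, with a median of -0.56 (-0.44 length-adjusted) and with *Hgf*, hepatocyte growth factor, at 2.66, 3.85, 5.17, and 0.854 CPM and *Fgf7*, a keratinocyte growth factor, at 26.4, 11.9, 22.5, and 8.81.

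Epidermal genes went both ways. Of 12 basal keratinocyte genes 4 were above and 5 below. *Krt14*, given above, and *Krt15* (1660.4, 1689, 1139, and 3737 CPM) were more than 2-fold above, *Krt5* was above by 0.07 log2 (1369, 4367, 3239, and 4569 CPM), and *Dst*, the hemidesmosomal plakin, was below at 1406, 547, 914, and 109 CPM. The integrins *Itga6* (45.1, 56.9, 66.6, and 16.0 CPM) and *Itgb4* (75.8, 92.9, 80.4, and 26.5 CPM), which hold basal cells to the basement membrane, were also below. The median of the list was -0.69, and -0.02 length-adjusted. Among 10 suprabasal genes 3 were below, with *Dsp*, desmoplakin, at 3049, 2734, 5135, and 319 CPM, and 1 above, with a median of -1.76 (-1.19 length-adjusted). The keratins of the spinous layer, *Krt1* (1638, 33.9, 1374, and 79.6 CPM) and *Krt10* (2312, 25.5, 1731, and 123 CPM), were within a range that was very wide among the other 3 libraries. Of 15 genes of the cornified envelope and barrier 12 were within the range, with a median of -0.28 (-0.01 length-adjusted) and with *Casp14*, a protease of cornification, below at 32.6, 3.66, 34.4, and 0.460 CPM. Of 5 wound keratins and alarmins 2 were above, *Krt17*, a keratin of wound edge and hair follicle (623, 2576, 1788, and 7468 CPM), and *Krt16* (23.4, 63.2, 191, and 204 CPM), and the median of 0.85 turned to -0.73 length-adjusted, with 1 above.

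Hair and sebaceous genes were seldom below the range, while their counts above are to be read against the 37.3% of all genes that were above. Of 12 hair shaft keratins 3 were above and 0 below, with a median of 2.41 (1.80 length-adjusted). *Krt35*, of the hair cortex and cuticle, stood at 2.13, 103, 265, and 797 CPM and *Krt36* at 0.242, 3.85, 16.1, and 27.6. In the control these keratins were low, and 9 of the 12 were within a wide range. Summed over the list the level was highest in Alg, at 18.3, 199.6, 3733, and 1715 CPM. Of 10 inner root sheath genes 3 were above and 1 below, with the transcription factor *Gata3* at 8.23, 10.5, 12.01, and 30.9 CPM and a median of 0.32 (0.20 length-adjusted). Their summed level was also highest in Alg, at 2646, 4420, 42790, and 5491 CPM. Of 12 hair follicle regulators 5 were above and 0 below, with a median of 0.94 (1.13 length-adjusted), among them *Msx2* (0.871, 7.57, 17.0, and 41.6 CPM) and *Lef1*, a mediator of Wnt signalling (3.24, 32.6, 51.5, and 85.8 CPM). Of 12 sebaceous genes 6 were above and 0 below, with *Awat1*, a wax synthase, at 48.1, 105, 26.4, and 384 CPM and a median of 0.68 (0.39 length-adjusted). Of 11 adipocyte genes 3 were above, with *Fabp4* at 788, 464, 1459.7, and 2157 CPM, and 3 below, with *Lpl*, lipoprotein lipase, at 158, 103, 143, and 63.7, and the median of 0.09 turned to -0.24 length-adjusted. *Aqp5*, a water channel of secretory glands, was above at 0.726, 1.20, 0.985, and 3.15 CPM.

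Of 18 proliferation genes 9 were above, 3 of them 2-fold, and 2 below, with a median of 0.60 (0.46 length-adjusted). *Birc5*, survivin, stood at 6.53, 29.7, 27.9, and 93.6 CPM, *Ube2c*, which drives mitotic exit, at 3.15, 14.8, 8.93, and 44.8, and *Cdk1* at 2.27, 9.59, 9.73, and 20.6, while the longer *Mki67* (115, 328, 373, and 321 CPM) and *Top2a* (76.4, 251, 339, and 95.4 CPM) were within the range. Of 11 heat shock and unfolded protein genes 6 were above and 3 below, with *Hspb1*, a small chaperone abundant in muscle, at 54.8, 39.0, 51.9, and 161 CPM and a median of 0.84 (0.35 length-adjusted). Of 14 immediate early genes, which tissue handling can induce, 3 were above and 2 below, and *Fos* was within the range at 144, 29.1, 16.5, and 17.1 CPM, and the median of 0.07 turned to -0.20 length-adjusted. Of 14 circadian clock genes, whose levels depend on the hour of sampling, 3 were above and 6 below, with a median of 0.28 (0.50 length-adjusted). Among the 6 below were *Per2* at 34.3, 24.5, 22.5, and 3.48 CPM and *Arntl* at 16.3, 17.3, 19.2, and 5.98. Of 19 cholesterol and lipid synthesis genes 5 were above and 5 below, with a median of 0.28 (0.41 length-adjusted). Of 8 erythroid genes 4 were above and 2 below, with the globin *Hba-a2*, near-identical to *Hba-a1* and thus uncertain, at 33.8, 28.3, 12.01, and 104 CPM, and the median of 0.93 turned to -0.06 length-adjusted, with 1 above and 3 below. Of 10 Schwann cell genes 4 were above, with the myelin gene *Ncmap* at 4.60, 3.66, 3.02, and 25.7 CPM, and 1 was below, with a median of 0.42 (0.70 length-adjusted). Of 3 cartilage and bone genes 1 was above and 1, *Col11a1*, below, with a median of 0.64 (0.84 length-adjusted).

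Over the 51 lists, 26 had a median difference above 0 and 25 below. On library size scaling in place of TMM the median of all genes moved from -0.05 to -0.54 log2, and then 16 lists had a median above 0. The 10 lists that changed sign then were inner root sheath, adipocyte, myofibroblast and smooth muscle, mast cell, MHC class II, cholesterol and lipid synthesis, immediate early, circadian clock, Schwann cell, and housekeeping. None of the 19 lists with a median of at least 1 in size changed sign under any alternative run, though lists of that size have little room to turn. Among the lists with smaller medians, 9 changed sign when the length trend was removed, and 6, 4, and 6 when the control, d-SMG, or Alg library was left out. Under library size scaling genes above made up 30% of the genes outside the range, against 48.1% with TMM, and 13% of those 2-fold outside, against 42.2%.

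**Figure D5:**
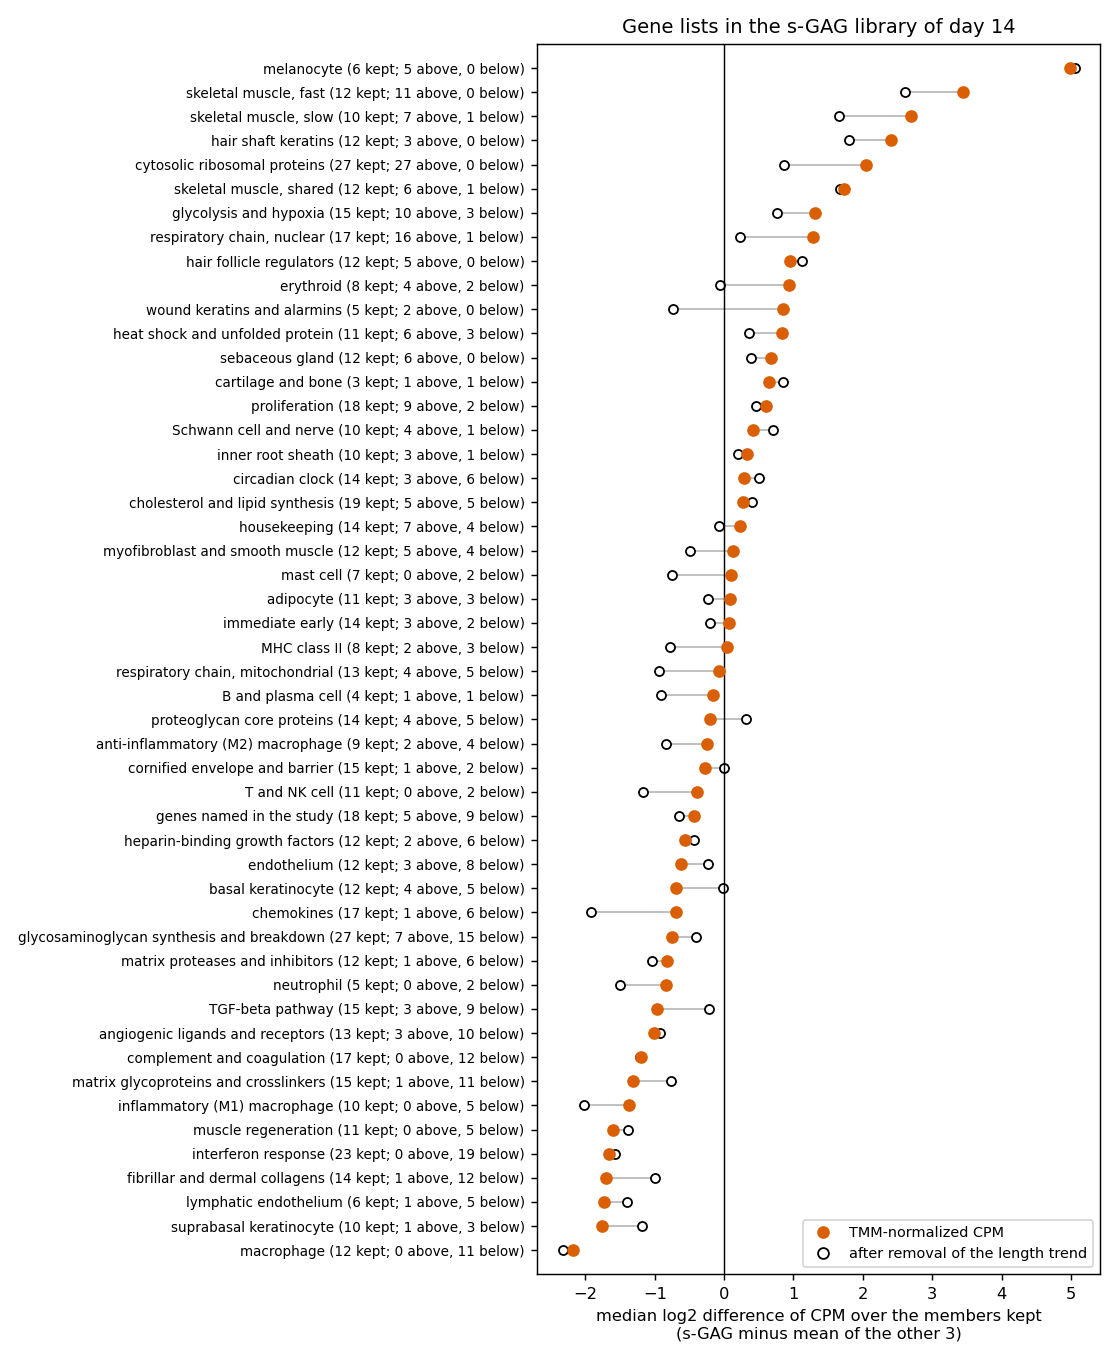
Median log2 difference of s-GAG from the mean of the other 3 on day 14 (x axis) over the kept members of each list with at least 3, filled for TMM-normalized CPM and open after removal of the length trend. The medians run from 4.99 for melanocyte genes to -2.19 for macrophage genes.

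A further list held 18 kept genes that the study named in its text or measured by other assays, some of them chosen on these samples, so that it is not independent evidence of direction. The s-GAG library was above all 3 for 5 of them and below for 9, with a median of -0.44 (-0.65 length-adjusted), and 1 of the genes above and 6 of those below were past 2-fold. Above were *Pdgfa*, *Vegfb* (10.6, 10.2, 5.91, and 17.0 CPM), *Fgf3* (0.290, 0, 0.616, and 1.12 CPM), *Tgfb1*, and *Col7a1*. Below were *Cd163*, *Mrc1*, *Il10*, *Nos2*, *Vegfa*, *Col3a1*, *Il1b*, *Tnf*, and *Pdgfb* (9.53, 9.46, 10.2, and 8.61 CPM). Within the range were *Arg1*, *Col1a1*, *Cd86* (2.56, 3.72, 1.97, and 2.04 CPM), which costimulates T cells, and *Jak3* (3.92, 10.2, 4.13, and 6.24 CPM), a kinase of cytokine receptors.

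Most genes that were 2-fold outside the range on day 14 did not hold the same position on days 3 and 7. On day 3 the s-GAG library was above the other 3 of that day for 29.1% of 15087 genes and below for 27.1%, and on day 7 above for 28% of 15295 and below for 22.2%. Of the 1807 genes that were at least 2-fold above on day 14 and kept on both days, 247 (13.7%) were above on day 3, against 29.5% of all genes, and 847 (46.9%) were below, against 26.8%. Of 2563 genes at least 2-fold below on day 14, 293 (11.4%) were below on day 3 and 1201 (46.9%) were above, against 26.8% and 29.5% of all genes. On day 7 the shares were nearer those of all genes, with 25.8% of 1809 above (28.4% of all) and 19.5% of 2595 below (21.7% of all). Genes 2-fold outside on day 14 with the same position on both other days numbered 134 of 1783 above and 86 of 2558 below. The matching share of all genes was not taken, so these counts have no comparison.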

How the data were processed

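Total RNA from wound skin was depleted of rRNA and sequenced as stranded paired-end libraries with reads of 150 bases. The authors deposited 1 table of read counts per gene and 1 of FPKM for 12 libraries. Per the labels, their processing notes name bcl2fastq, FastQC, TopHat2, and edgeR, and the genome build and the counting settings were not given in the sources used here. Each table held 1 further column of no described sample, which was not used. Columns of differences between groups were not used.

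From the deposited counts, TMM factors and log2 CPM (prior count 2) were computed with edgeR 4.0.16 in R 4.3.3 over the 4 day 14 libraries, keeping genes with a mean of at least 0.5 CPM. Library totals were 13748887 to 20189078 reads on genes. Position, gap to the nearest library, and difference from the mean of the other 3 were then taken per gene, and the 1 against 3 quasi-likelihood test was adjusted by Benjamini-Hochberg. DESeq2 1.42.0 was an alternative. Exact binomial intervals (95%) cover counting error only, and a count of 0 was set at 3 reads for bounds. Gene length was derived from the deposited counts and FPKM, agreed over libraries within a ratio of 1.0502, and was missing for 4 kept genes. For length-adjusted values a lowess curve (span 0.3) over log length was removed from each library, an alternative chosen after seeing the data. The scripts were tested on simulated data. RefSeq promoters (GRCr8) were matched by symbol for 11664 of 15362 kept genes.

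Named genes were the 12 protein coding genes with the largest gap above and the 12 below that had at least 100 reads in the highest library and no provisional symbol, the 3 above and 3 below of other GeneTypes, up to 4 members of each list with the largest gap and up to 2 near its median, and the genes the study named. Others were named from the lists after their values were seen. Some genes that the rule names are not reported here. The 51 lists hold 682 entries, of which 627 were kept, and some genes stand in more than 1 list. The members and lists were chosen with earlier results of these data known.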

Additional observations from a re-analysis of the deposited data

Results flagged for a closer look

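The dependence on gene length in the s-GAG libraries ran in opposite directions on 2 days: the median difference of genes under 500 bases minus that of genes of 8000 bases and over was 2.36 on day 14 and -0.50 on day 3. The difference between the days was not tested. Positions also turned between these days: 847 genes that were at least 2-fold above on day 14 were below all 3 on day 3, and 1201 genes at least 2-fold below on day 14 were above all 3 on day 3. Among genes of 500 to 1000 bases, s-GAG was the highest for 77.2% on day 14 and the lowest for 45.8% on day 3. The turned positions are therefore not independent of the length trend. These differences were not tested either, since each day had 1 s-GAG library.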

How the results depend on the processing

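No paired analysis was possible because the s-GAG library of day 14 has no replicate to pair with those of another group, and the fits of 12 libraries below only share day as a term. The cause of the changes below was not tested unless the setting itself sets it. With library size alone in place of TMM, 3489 genes were above, 637 at least 2-fold above, and 4251 at least 2-fold below, and 16 lists had a median above 0. With FPKM, 3714 were above, 519 (pseudocount 1) or 735 (pseudocount 0.1) were 2-fold above, and 16 lists were above 0 with either. With a gap of 1.5-fold 3300 and 3987 genes passed, and with 4-fold 169 and 745. The edgeR test called 1 gene with no filter, 0 to 29 when 1 library was left out (29 without the control), and 5226 at an unadjusted p under 0.05. DESeq2 called 3684, the exact test 5449, and the fits of 12 libraries 4062 and, with a treatment term, 1638.

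Noncoding genes depend on the filter, since more or fewer genes are then tested: 2003 long noncoding RNAs lay outside the range with no filter and 61 at a mean CPM of at least 5, which left 23 miscellaneous RNAs outside. By length, removal of the length trend gave 36 genes above and 62 below under 500 bases, 272 and 222 from 500 to 1000, 961 and 848 from 1000 to 2000, 1782 above from 4000 to 8000, and 843 above and 850 below from 8000. No filter gave 349 above and 82 below under 500 bases, and 869 and 133 from 500 to 1000. At a mean CPM of at least 5 there were 46 above and 7 below under 500 bases, 16 below from 500 to 1000, 209 below from 1000 to 2000, and 190 above from 8000. Library size alone gave 84 below from 500 to 1000, 624 below from 1000 to 2000, and 1166, 428, and 105 above in the 3 longest classes. FPKM gave 583 below from 1000 to 2000 with either pseudocount, and 1263, 465, and 110 above in the 3 longest.

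Of the genes 2-fold above on day 14, the percentage above on day 3 was 17.8 with library size alone, 17.2 with no filter, 8.75 at a mean CPM of at least 5, and 18 with the length trend removed. That above on day 7 was 23.2 after thinning to equal totals. Of the genes 2-fold below, the percentage below on day 3 was 7.52, 10, and 12.8 with library size alone, a mean CPM of at least 5, and the length trend removed, and on day 7 it was 17.4, 14.8, and 23.1, and 22.9 after thinning. Of 513 values of 48 named genes under these alternatives 382 moved little and 131 moved further, and 0 of the genes at least 2-fold outside turned direction. None of the 19 lists with a median of at least 1 in size changed sign under any of these. Genes and lists picked for such a size have little room to turn, so these counts are a weak check. Of the lists nearer 0, 10 changed sign with library size alone and with FPKM, 9 with the length trend removed, 3 with no filter and at a mean CPM of at least 5, 1 after thinning, 0 with RLE factors, and 6, 4, and 6 without the control, d-SMG, or Alg library. With 1 library per group no depth removes the limit that animals and treatments cannot be told apart.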
